A study of Caenorhabditis elegans with 2 samples.

Results

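The microRNA genes of the Caenorhabditis elegans nuclear genome outside the mir-51 family were examined for binding of UNC-62 in embryos. The rule that picks them uses annotation alone: they are the genes of biotype miRNA on the 6 nuclear chromosomes of WBcel235 (Ensembl release 115), and no measured value enters it. Leaving out the 7 genes mir-51 to mir-56 (mir-55b included) left 254 of 261 microRNA genes. All 254 had a gene entry in RefSeq and 253 had an annotated mature product there. The entries were matched by WormBase gene identifier, so this is no independent check of the biotype. The binding data came from chromatin immunoprecipitation with sequencing (ChIP-seq) in 1 group of 2 biological replicates, whole mixed-stage embryos of strain OP600 with the sexes pooled. Both replicates carry unc119(ed3) and the transgene wgIs600, which holds unc-62 tagged with TY1, EGFP and FLAG together with unc119, so the protein mapped is a tagged UNC-62 expressed from a transgene. There was no second condition and no control library among the samples. The measure was the position of the summit of each peak in the authors' list of 2754 peaks that passed the irreproducible discovery rate (IDR) step on build ce11, of which 2732 were nuclear. Read depth is unknown, and for a gene without a nearby summit the data do not show that UNC-62 was missing there.

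MicroRNAs are short RNAs cut from a hairpin precursor by Drosha and then Dicer, that lead an Argonaute protein to messenger RNAs. Target choice rests largely on the seed, the stretch near the 5′ end of the mature RNA, so genes whose products share a seed form a family. Their genes lie in introns of other genes or in intergenic sequence, alone or in clusters transcribed together, and the promoter of the primary transcript lies upstream of the hairpin. UNC-62 is the Meis/Prep-class homeodomain factor of the worm, a partner of PBC-class and Hox proteins in embryonic patterning.

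The mature products of the families and genes that the results turn on are shown here to show which seeds belong to genes with and without a nearby summit. Sequences were read from the RefSeq genome at the mature coordinates of the RefSeq annotation, 5′ to 3′, with the seed (bases 2 to 8) in capitals. The mir-35 family, which embryos need in order to develop, shares 1 seed over 8 genes.
miR-35-3p: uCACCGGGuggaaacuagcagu
miR-36-3p: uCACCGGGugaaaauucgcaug
miR-37-3p: uCACCGGGugaacacuugcagu
miR-38-3p: uCACCGGGagaaaaacuggagu
miR-39-3p: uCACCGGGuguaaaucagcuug
miR-40-3p: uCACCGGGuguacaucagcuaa
miR-41-3p: uCACCGGGugaaaaaucaccua
miR-42-3p: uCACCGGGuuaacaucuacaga

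The mir-58 family is related to bantam of flies. Among the 4 genes shown, mir-58a has a different last seed base from the other three. The seed of mir-80 was carried by 6 of the 254 genes.
miR-58a-3p: uGAGAUCGuucaguacggcaau
miR-80-3p: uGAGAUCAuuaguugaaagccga
miR-81-3p: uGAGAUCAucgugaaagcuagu
miR-82-3p: uGAGAUCAucgugaaagccagu

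The genes mir-229, mir-64 and mir-66 belong to a cluster on chromosome III, and mir-63 on X carries the same seed.
miR-229-5p: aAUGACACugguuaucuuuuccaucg
miR-64-5p: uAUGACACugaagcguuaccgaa
miR-66-5p: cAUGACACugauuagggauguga
miR-63-3p: uAUGACACugaagcgaguuggaaa

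Of the remaining genes with a summit within 500 bp, 4 are shown. The seed of mir-57 was found in no other of the 254 genes, nor was that of mir-67, while that of mir-90 was shared with mir-50 and mir-62 and that of mir-231 with mir-787.
miR-57-5p: uACCCUGUagaucgagcugugugu
miR-67-3p: uCACAACCuccuagaaagaguaga
miR-90-3p: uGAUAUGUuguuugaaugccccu
miR-231-3p: uAAGCUCGugaucaacaggcagaa

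A small set of microRNA genes had an UNC-62 summit close by. Within 500 bp of the annotated gene, which is usually the hairpin, a summit lay at 15 of 254 genes (5.91%, exact binomial 95% interval 3.34 to 9.55). Within 2 kb the count was 53 of 254 (20.9%, 16 to 26.4). For comparison, windows of 95 bp, the median length of these genes, had a summit within 500 bp at 2.91% of positions in the nuclear genome and within 2 kb at 9.56%. Outermost starts of protein-coding genes had one within 500 bp in 4.66% of cases and within 2 kb in 10.6%. The share of microRNA genes within 500 bp was thus above that of genome windows, and its interval included that of coding gene starts. Within 2 kb its interval lay above both. These intervals cover counting error over genes only, and treat genes as independent.

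Other short non-coding genes had summits close by more often. Among 612 tRNA genes 15.7% had a summit within 500 bp and 21.1% within 2 kb, and among 346 snoRNA genes 20.8% and 34.4% did. The microRNA share lay under both within 500 bp, while within 2 kb its interval included the tRNA share and lay under the snoRNA share. All 7 genes of the mir-51 family, left out here, had a summit within 500 bp.

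**Figure D1:**
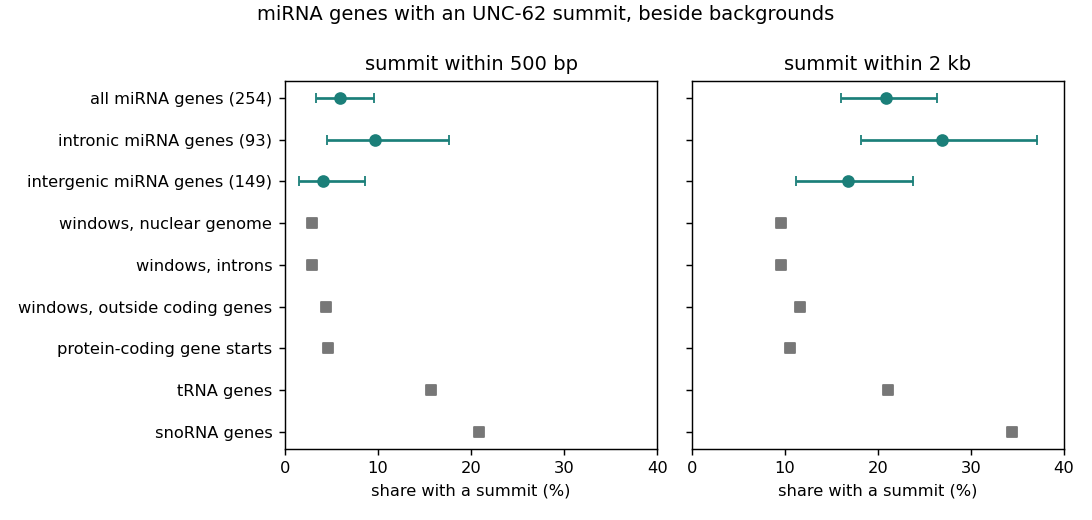
Share of microRNA genes with an UNC-62 summit within 500 bp (left) and within 2 kb (right), in percent on the horizontal axes. Circles with bars are microRNA genes with exact binomial 95% intervals, and squares are backgrounds: windows of 95 bp, protein-coding gene starts, tRNA genes and snoRNA genes. The 20.9% of all 254 genes within 2 kb lies right of the squares for windows and coding gene starts.

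Clustered microRNA genes share summits, so genes were also counted as loci. Genes on the same strand less than 1000 bp apart made 222 loci, of which 17 held more than 1 gene. A summit lay within 500 bp of 15 loci (6.76%, exact interval 3.83 to 10.9) and within 2 kb of 40 (18%, 13.2 to 23.7). The 53 genes within 2 kb had 39 distinct nearest peaks, and 6 of these peaks were nearest to 20 genes.

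Intronic microRNA genes had the larger share. Of 93 genes that lay wholly in an intron of a protein-coding gene, 9 had a summit within 500 bp (9.68%, exact interval 4.52 to 17.6) and 25 within 2 kb (26.9%, 18.2 to 37.1). Windows of 95 bp inside introns had 2.86% and 9.65%. Of 149 genes outside protein-coding genes, 6 had a summit within 500 bp (4.03%, 1.49 to 8.56) and 25 within 2 kb (16.8%, 11.2 to 23.8), against 4.42% and 11.6% of windows in such sequence. The intergenic share was therefore near its background at the shorter distance, and its 2 kb interval included the background too. Among the 25 intronic genes within 2 kb, 7 shared the peak of the mir-35 cluster, and the genes of the mir-229 cluster shared another. Intergenic genes shared peaks too, at most 3 genes to a peak. The intervals treat all of these genes as independent. The intronic and intergenic intervals overlapped, and the difference between the classes was not tested. The 12 genes that overlap an exon had 0 summits within 500 bp, with an exact interval that reaches 26.5%, and 3 within 2 kb.

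Among intronic genes the strand of the host was compared. Of 66 genes on the strand of their host, 7 had a summit within 500 bp and 14 within 2 kb. Of 27 genes on the opposite strand, 2 had one within 500 bp and 11 within 2 kb, and 7 of those 11 were the mir-35 to mir-41 cluster. The host's own start window, taken as 1000 bp before its outermost start to 500 bp after it, held the summit for 1 of the 9 intronic genes within 500 bp, and for 4 of the 25 within 2 kb.

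Nearest summits lay mostly upstream of the microRNA genes. No promoter of a primary transcript was mapped here, so the side does not place a summit at a promoter. With 1 nearest summit taken for each gene, 12 within 500 bp were upstream, 2 downstream and 1 inside the annotated gene. Farther summits within 500 bp, not counted here, lay 457 bp upstream of mir-58a and 488 bp downstream of mir-67. Within 2 kb 36 were upstream, 16 downstream and 1 inside, so that 69.2% of those to a side were upstream. The upstream share was 79.3% for the 30 genes within 1 kb and 56.5% for the 23 between 1 and 2 kb. It was 80% for intronic and 58.3% for intergenic genes within 2 kb, and over both classes and exon-overlapping genes 64.1% when each locus counted once. The intronic value counts the upstream summit of the mir-35 to mir-41 cluster 7 times. It also counts that of the mir-229 cluster more than once, so it overstates the number of separate upstream summits. At protein-coding gene starts with a nearest summit within 2 kb 77.7% were upstream, at tRNA genes 60.2% and at snoRNA genes 80.9%.

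**Figure D2:**
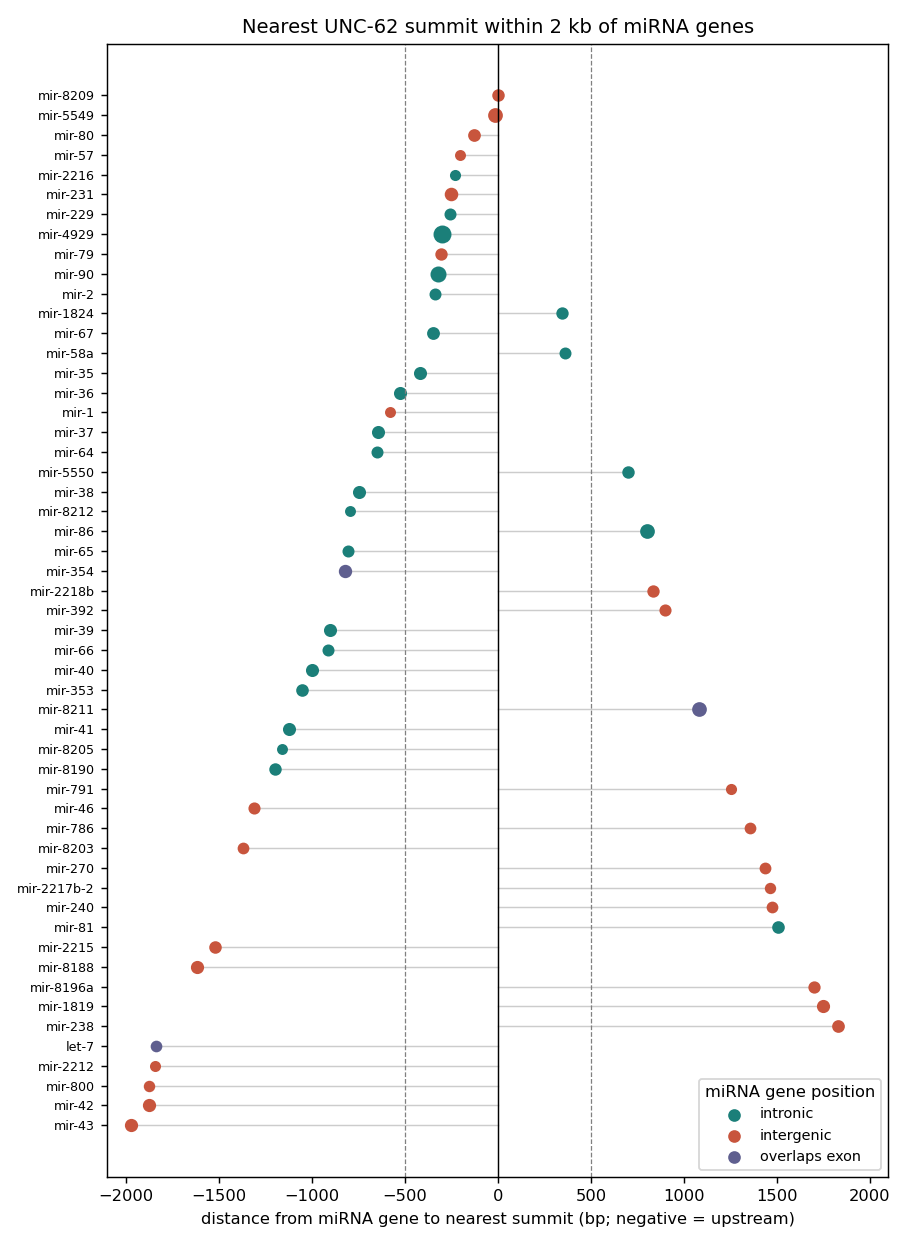
Distance in bp from each of the 53 microRNA genes to its nearest UNC-62 summit within 2 kb, upstream to the left (negative) and downstream to the right. Point size grows with peak signal, colour gives the position of the gene, and dashed lines mark 500 bp. Of the 15 genes inside the dashed lines, 12 have the nearest summit upstream.

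The peaks nearest to microRNA genes were of middling strength. The 39 distinct nearest peaks within 2 kb had a median signal of 96.5 in the authors' IDR list, with a range of 61.8 to 279.7. The median over all 2732 nuclear peaks was 94.4. The 15 nearest peaks within 500 bp had a median of 99.8. Farther summits around the same genes are not in these numbers. Signal here is the value that the authors' caller gave each peak, and it ranks peaks within a list only. Each of the 15 nearest peaks was found in both replicate lists. So were nearly all of the 2732 nuclear IDR peaks, 2730 in replicate 1 and 2708 in replicate 2. Of the 15, 12 were among the 2754 strongest of both (80%), against 1940 of all nuclear IDR peaks (71%).

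The strongest peak near a microRNA gene lay 301 bp upstream of mir-4929, an intronic gene of E01G4.3 on its host's strand (WBGene00219226, chromosome II 13461755 to 13461864). It ranked 86 in the IDR list with a signal of 279.7. In replicate 1 its signal was 195.5 (rank 66) and in replicate 2 it was 98.3 (rank 117), so it was near the top of both lists. The next among nearest peaks was that 323 bp upstream of mir-90 (WBGene00003318, chromosome III 8873987 to 8874084), in an intron of K01F9.2, with a signal of 207.3. Its rank was 226 in replicate 1 and 261 in replicate 2. A farther peak 1893 bp upstream of mir-2, not the nearest to that gene, had a higher signal of 246.3. A peak of signal 165.8 had its summit 14 bp upstream of mir-5549 (chromosome III 6971976 to 6972085), at ranks 539 and 434. That summit also lay in the start window of eef-1A.1, which encodes a translation elongation factor, and 154 bp from the start of rfc-4.

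The gene mir-231 lies in the neighbourhood of the Hox gene lin-39. Its peak (signal 128.9) had a summit 250 bp upstream of the gene (WBGene00003324, chromosome III 7545057 to 7545155), with ranks of 965 in replicate 1 and 572 in replicate 2. The nearest protein-coding start to that summit was that of lin-39, 8773 bp away. A further summit of higher signal, 153.6, lay 643 bp downstream of mir-231.

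The mir-35 cluster, 7 hairpins read from the plus strand inside an intron of Y62F5A.9, had a summit upstream of its leading gene. The summit lay 421 bp from mir-35 (WBGene00003263, chromosome II 11537608 to 11537704), 526 bp from mir-36 and 1121 bp from mir-41, the last of the cluster. The IDR signal was 115.2. Replicate 1 gave it a signal of 65.8 and rank 1187, replicate 2 a signal of 51.2 and rank 656. The nearest protein-coding start was 1654 bp away and was that of the host, which runs the other way. The eighth family member, mir-42, lies in another cluster with mir-43 and mir-44, and the nearest IDR summit was 1875 bp upstream of it (signal 119.6, ranks 1270 and 510). That summit was 1974 bp upstream of mir-43 and 2087 bp upstream of mir-44.

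Within the mir-58 family the genes differed. The summit at mir-80 lay 131 bp upstream of the gene (WBGene00003308, chromosome III 8865270 to 8865367), with a signal of 106.2 and ranks of 1088 and 846. It was 11630 bp from the nearest protein-coding start. The gene mir-58a, in an intron of Y67D8A.2 (chromosome IV 3233254 to 3233350), had its nearest summit 362 bp downstream, with a signal of 86.7 and ranks of 1735 and 1188. The nearest summit to mir-81 was 1506 bp downstream and that to mir-82 was 2573 bp downstream. The nearest summits to mir-2209a, mir-2209b and mir-2209c were 67169, 63279 and 67052 bp away, and no gene of the annotation has the listed name mir-1834. Of the 7 genes found under the listed names 2 had a summit within 500 bp and 3 within 2 kb. The genes mir-58b and mir-58c, which were not on the list but carry the seed of mir-80, lay 2730 and 2903 bp from a summit, downstream of both.

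The cluster that holds mir-229, mir-64 and mir-66, in an intron of gcn-1 on the strand of its host, had a summit 255 bp upstream of mir-229 (chromosome III 2172452 to 2172566). Its signal was 87.9, and it ranked 2273 in replicate 1 and 1034 in replicate 2. The distance was 651 bp for mir-64 and 911 bp for mir-66, and the start of gcn-1 was 20252 bp from the summit. The family member mir-63 on X was 11714 bp from any summit.

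The gene mir-57 has a known regulatory loop with the posterior Hox gene nob-1. Its summit lay 203 bp upstream (WBGene00003285, chromosome II 7850499 to 7850597), but the peak was weak. It ranked 2575 of the 2754 IDR peaks, with a signal of 35.2 (rank 3174) in replicate 1 and 26.9 (rank 2292) in replicate 2. The peak 232 bp upstream of mir-2216, in an intron of gmps-1, was also low in the lists, at IDR rank 2414 (signal 65.6) and replicate ranks of 3310 and 2273. With the 2754 strongest peaks of replicate 1 alone neither gene had a summit within 500 bp.

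The other genes within 500 bp lay on chromosomes I and III. The gene mir-79, which acts in the epidermis in neuronal migration, had a summit 305 bp upstream with a signal of 96.9 and ranks of 1355 and 1372. The gene mir-2, in an intron of ppfr-1, had a summit 339 bp upstream, with a signal of 86.8 and ranks of 1950 and 1048. At mir-8209 the summit fell inside the annotated gene (signal 99.8, ranks 970 and 2584). The peaks at mir-67 and mir-1824 lay at starts of protein-coding genes as well. That of mir-67, 349 bp upstream of it (signal 109.0, ranks 776 and 3190), was 75 bp from the start of EGAP1.5, and that of mir-1824, 343 bp downstream (signal 96.5, ranks 1670 and 999), was 100 bp from the start of Y87G2A.18, its host.

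**Figure D3:**
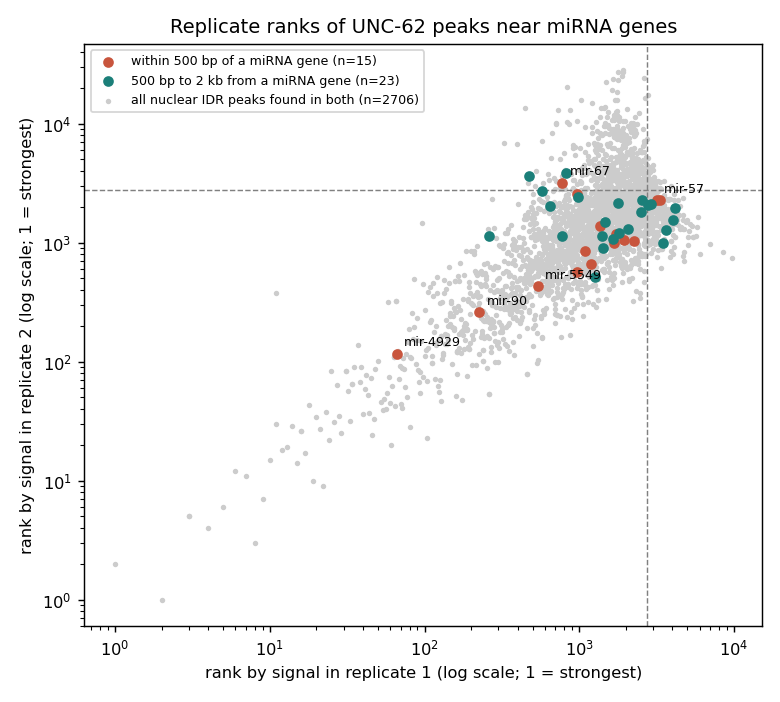
Rank by signal in replicate 1 (horizontal) and replicate 2 (vertical), both on log scales with 1 the strongest, of the UNC-62 peaks nearest to microRNA genes over all nuclear IDR peaks (grey). Dashed lines mark rank 2754. The peak at mir-4929 (66 and 117) lies lowest to the left of the coloured points, while those at mir-57 and mir-67 each cross 1 dashed line.

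For most of these genes no protein-coding start was nearer to the summit than the microRNA gene itself. That held for 13 of the 15 genes within 500 bp and for 38 of the 53 within 2 kb. The summit lay in the start window of some protein-coding gene for 3 of the 15 and for 15 of the 53. The genes were picked for a summit within these distances, which favours the microRNA gene as the nearer. No share over all nuclear IDR peaks stands beside these counts, so they do not assign the peaks to the microRNA genes. Only outermost annotated starts were used, so internal starts of coding genes were not considered.

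Sequence under the summits is shown for 6 of these peaks, chosen for the families above and for mir-57, mir-90 and mir-231. Each window holds 50 bp to each side of the summit on build ce11, on the strand of the microRNA gene. Capitals mark GAGAGA on either strand (TCTCTC where it is on the other strand), and the windows of mir-35 and mir-57 hold none.
mir-80 (chrIII:8865448-8865548, minus strand): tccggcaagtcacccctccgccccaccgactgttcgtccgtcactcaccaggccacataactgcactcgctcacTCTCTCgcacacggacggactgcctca
mir-90 (chrIII:8874357-8874457, minus strand): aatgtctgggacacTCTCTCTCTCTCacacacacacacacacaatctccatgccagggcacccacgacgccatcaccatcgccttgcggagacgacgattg
mir-231 (chrIII:7545355-7545455, minus strand): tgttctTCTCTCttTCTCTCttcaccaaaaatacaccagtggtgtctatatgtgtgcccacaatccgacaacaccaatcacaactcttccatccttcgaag
mir-229 (chrIII:2172147-2172247, plus strand): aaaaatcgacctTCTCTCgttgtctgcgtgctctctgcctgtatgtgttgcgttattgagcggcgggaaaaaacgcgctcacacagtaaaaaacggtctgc
mir-35 (chrII:11537137-11537237, plus strand): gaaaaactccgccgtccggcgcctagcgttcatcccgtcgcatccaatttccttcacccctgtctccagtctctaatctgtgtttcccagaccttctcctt
mir-57 (chrII:7850750-7850850, minus strand): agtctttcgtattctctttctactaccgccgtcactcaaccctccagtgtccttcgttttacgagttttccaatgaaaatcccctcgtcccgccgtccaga

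Motifs near microRNA genes were counted in the windows of nearest peaks only. GAGAGA was present in 8 of the 15 such windows within 500 bp (53.3%) and in 18 of the 39 within 2 kb (46.2%). It was in 872 of 2732 nuclear summit windows (31.9%). On the strand of the microRNA gene the letters read TCTCTC at 7 of the 15 peaks and GAGAGA at 2, with 1 peak holding both. No strand count over other peaks stands beside these, and a strand preference was not tested. The Meis core TGACAG was in 0 of the 15 windows and in 5 of the 39 (12.8%), against 12.8% of all nuclear summit windows. The PBC-Hox letters TGATTGAT and TGATTTAT were in 0 of the 39, against 3.4% and 2.67% of all. The PBC-Meis composite site, with at most 1 mismatch, was in 1 of the 39, that of the peak at mir-86 and mir-8211, against 3.59%. The composite ends in TGACAG, so these 2 motifs overlap, and the numbers of peaks here are small.

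For 38 genes the nearest summit lay between 500 bp and 2 kb, with signals of 61.8 to 164.3. The strongest of these nearest peaks was 804 bp downstream of mir-86, in an intron of Y56A3A.7, and 1083 bp downstream of mir-8211 (signal 164.3, ranks 261 and 1141). It was followed by the peak 822 bp upstream of mir-354, which overlaps an exon of the ribosomal protein gene rps-20. There the signal was 123.1, the ranks were 775 and 1148, and the summit lay in the start window of rps-20 and 187 bp from the start of ekl-4. Next came the peak of mir-42 and mir-43 above, that 1620 bp upstream of mir-8188 (118.4, ranks 577 and 2713) and that 1747 bp downstream of mir-1819 (118.3, ranks 647 and 2051). The remaining genes of the mir-35 cluster, mir-36 to mir-41, followed with their shared peak. Just past the 500 bp limit lay mir-36 at 526 bp and mir-1 at 579 bp, and just inside it mir-35 at 421 bp. Just past 2 kb lay mir-259 at 2008 bp and mir-62 at 2024 bp, and just inside it mir-43 at 1974 bp.

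Of microRNA genes listed for muscle and neurons, the 1 muscle gene and 2 of the 7 listed as neuronal had a summit within 2 kb, against 20.9% of all 254. The muscle gene mir-1 had a weak one 579 bp upstream (signal 62.8, ranks 2925 and 2122). Of those listed as neuronal, mir-79 had a summit within 500 bp, but it acts in the epidermis, as given above. The nearest summit to mir-791, which acts in carbon dioxide sensing neurons, was 1256 bp downstream (signal 66.4). The nearest summit was 2889 bp from mir-71 and 5765 bp from mir-34. It was 11841 bp from mir-124, 21041 bp from lsy-6, which sets the asymmetry of a taste neuron pair, and 63516 bp from mir-273. The gene mir-786, which paces the defecation rhythm, and its neighbour mir-240 had a summit 1354 and 1476 bp downstream, 100 bp from the start of pcyt-2.2.

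The listed genes of the heterochronic families, which time the larval stages, had no summit within 500 bp, against 5.91% of all 254 genes. They are few, 5 of the let-7 family and 2 of the lin-4 family, so a count of 0 does not set them apart. The nearest summit to lin-4 was 5428 bp downstream, and that to its relative mir-237 was 3113 bp downstream. For let-7 it was 1840 bp upstream of the annotated gene, which spans 1732 bp and so is longer than a hairpin, and 2906 bp from the nearer mature product. That summit (signal 78.8, ranks 1766 and 2167) was 142 bp from the start of C05G5.2. The other let-7 family genes lay 13285 bp (mir-48), 15061 bp (mir-241), 18135 bp (mir-795) and 34048 bp (mir-84) from a summit. None of the 4 mir-44 family genes had one within 2 kb, with distances of 2087 bp for mir-44, 6897 bp for mir-45, 9872 bp for mir-61 and 27906 bp for mir-247. Nor did the listed mirtrons, a class whose hairpins are spliced introns: mir-62 lay 2024 bp from the peak ranked 70 (signal 299.0) in the start window of its host ugt-50, mir-1019 lay 11539 bp away, mir-1018 23094 bp and mir-1020 30895 bp. In the annotation used mir-1018 lay outside any protein-coding gene. Within 2 kb 20.9% of all 254 genes had a summit. With 4 genes in the mir-44 family and 4 listed mirtrons, counts of 0 do not set these genes apart.

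By chromosome, the share of microRNA genes near a summit was highest on III at both distances. It was lowest on V within 2 kb, while within 500 bp both V and X had 0. On III 6 of 27 genes had a summit within 500 bp (22.2%, exact interval 8.62 to 42.3) and 13 within 2 kb (48.1%, 28.7 to 68.1), against 3.2% and 10.5% of windows of that chromosome. On chromosome I 4 of 33 did within 500 bp and 10 within 2 kb (30.3%, against 11% of windows), and on II 4 of 49 and 16 (32.7%, against 9.43%). On IV 1 of 47 genes had one within 500 bp (2.13%, against 2.42% of windows) and 3 within 2 kb (6.38%, against 7.98%), near the background. On X 0 of 70 did within 500 bp and 11 within 2 kb (15.7%, against 13%), and on V 0 of 28 at both distances. A count of 0 of 28 has an exact interval up to 12.3%, above the 6.42% of windows of V within 2 kb. That of 0 of 70 reaches 5.13%, above the 3.88% of windows of X, so both intervals include the background share. X had the most IDR peaks per Mb (36.3) and V the fewest (18.4). All 15 genes within 500 bp were autosomal, among 184 autosomal genes. These chromosome counts leave out the 7 genes of the mir-51 family, all of which had a summit within 500 bp. They therefore do not describe all microRNA genes of a chromosome. Genes that share a peak add to the 2 kb counts: the 13 genes on III had 8 distinct peaks, the 16 on II had 9, the 11 on X had 9 and the 10 on I had 10. The difference between chromosomes was not tested.

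**Figure D4:**
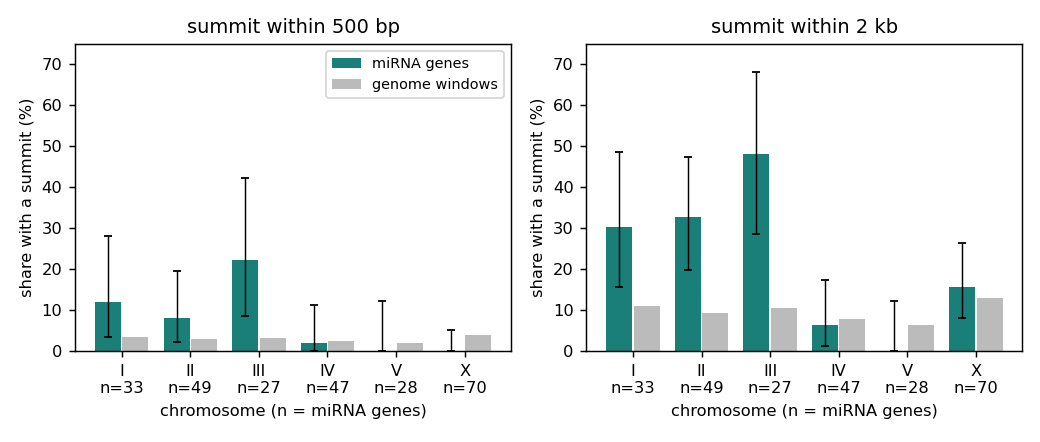
Share of microRNA genes (coloured bars, with exact binomial 95% intervals) and of windows of 95 bp (grey bars) that have an UNC-62 summit within 500 bp (left) or 2 kb (right), in percent, by chromosome. The bar for III is highest in both panels (22.2% and 48.1%), and V has 0 of 28 genes.

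The remaining 201 genes had their nearest IDR summit at a median distance of 18135 bp, and for 147 of them it was over 10 kb away. Among all genes with no IDR summit within 500 bp, some had a weaker peak that close. Those genes include some with an IDR summit between 500 bp and 2 kb, such as mir-238, mir-42 and mir-43. In the authors' pooled list, which also holds background peaks and has 17058 nuclear entries, 75 of 254 genes had a summit within 500 bp (29.5%), against 17% of genome windows. Of the 239 genes with no IDR summit that close, 60 had a pooled one. The strongest was 91 bp downstream of mir-238 (pooled rank 2875), just under the IDR list. It was followed by that 173 bp upstream of mir-255 (rank 2906) and that 330 bp upstream of mir-42 and 429 bp upstream of mir-43 (rank 3191, signal 53.6). At mir-42 the peak ranked 2395 in replicate 2 and 7753 in replicate 1. Pooled summits also lay 417 bp upstream of mir-71 (rank 5974), 319 bp upstream of mir-124 (rank 7462) and 17 bp upstream of mir-61 (rank 11628), ranks at which the list was made to include background.

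Proteins that make and use microRNAs, and known microRNA targets, were listed by name and examined in the same start windows, where 6.18% of all protein-coding genes have a summit. Of 18 pathway genes 5 had one (27.8%). Those were alg-2 (signal 92.1, 50 bp upstream, ranks 1278 and 3514) and alg-5 (208.7, 850 bp upstream, ranks 143 and 626), which encode Argonautes. They also included nhl-2, a cofactor of the microRNA complex (248.1, 803 bp upstream, ranks 139 and 142), cgh-1, a DEAD-box helicase (90.4, 781 bp upstream), and vig-1 (98.6, 418 bp upstream), a subunit of the silencing complex. The processing genes drsh-1, pash-1 and dcr-1 had none, with nearest summits 2227, 5477 and 13031 bp upstream, nor had alg-1, whose nearest was 1592 bp downstream of its start, inside the gene. Among 13 targets 3 had one (23.1%): lin-14, the target of lin-4 (signal 79.4, 209 bp upstream), and sup-26 and nhl-2, targets of the mir-35 family (115.0 at sup-26, 632 bp upstream). The remaining targets, among them lin-28, lin-41, hbl-1, cog-1 and egl-1, had none in that window, although lin-28, daf-12 and mef-2 each had 1 in the body, 831, 1784 and 1751 bp downstream of the start. The genes nhl-2 and lin-28 stand on both lists, so the summit at nhl-2 counts in both shares. Both lists are short and were chosen with earlier results of these data known. The shares therefore describe the listed genes only, and their difference from all protein-coding genes was not tested.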

How the data were processed

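ChIP-seq of tagged UNC-62 was available as peak lists, 1 for each of 2 biological replicates (21749 and 30000 peaks), 1 pooled and 1 IDR-thresholded. Per the deposited descriptions, each list was made from alignments on ce11 and a control file. For the aligner, peak caller and IDR cutoff, names and settings are not given in the sources used. The signal of each peak is the value the authors deposited in narrowPeak column 7, used only to rank peaks within a list. The ce10 lists were not used. The sequence and values of 1 microRNA are not reported here.

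Summits were column 2 plus column 10, written 1-based, and were set against the Ensembl annotation, release 115, of the same assembly (WBcel235). The distance was that from the summit to the nearest base of the gene. A replicate's peak was matched to an IDR peak by at least 1 bp of overlap, the strongest being taken. Intronic meant wholly inside a protein-coding gene with no exon touched. Both strands were searched for motifs, 50 bp to each side of a summit. Gene names are those of Ensembl without its species prefix, with let-7 from RefSeq. The genes named are all with a summit within 500 bp, those with the 10 strongest nearest peaks up to 2 kb (with ties), and the lists given. The rule for the genes uses no measured value, but the group of genes and the lists were chosen with earlier results of these data known. No test was made, since there is 1 group and 1 IDR list, and 95% intervals are exact binomial (Clopper-Pearson). The distance search was tested on planted summits. Python 3.11.15, numpy 2.4.6, scipy 1.17.1 and matplotlib 3.10.9 were used.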

Additional observations from a re-analysis of the deposited data

How the results depend on the processing

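The count of genes with a summit within 500 bp was 15. It was 75 with every pooled peak, 6 within 250 bp and 30 within 1000 bp. With the strongest peaks of a single replicate in place of the IDR list it ran from 16 to 20, and from 52 to 56 within 2 kb, where the main count was 53. The 2 kb count was 33 with the stronger 50% of the IDR peaks and 155 with every pooled peak. The intronic count of 9 and the intergenic count of 6 within 500 bp were each 25 within 2 kb. The composite site was in 2 peaks with windows of 100 bp to each side, in place of 1. The wider distances and longer lists admit more summits by construction. The other 22 values, those of single replicates included, with loci, distance from the 5′ end, peak edges, the host's strand, 5 kb and genes at protein-coding starts left out (12 within 500 bp and 38 within 2 kb, an alternative chosen after seeing the data), stayed within 1.5 times the main value or, for the share upstream, within its exact interval. No paired analysis was possible because there is 1 group. Depth is unknown, so it cannot be said how it limits the weaker peaks, and neighbouring genes share summits.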

Other observations

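Several microRNA genes had more than 1 IDR summit around them. Of the 15 genes with a summit within 500 bp, 9 had a further one within 2 kb. No share over all nuclear IDR peaks or other genes stands beside this count, so it shows no trait particular to microRNA genes. At mir-58a summits lay 1477 bp upstream (signal 138.1), 457 bp upstream (74.9) and 362 bp downstream (86.7), so the strongest was the one farthest away, and a weaker one lay upstream of the hairpin at a distance close to that of the nearest. At mir-79 they lay 1985 bp upstream (138.9), 305 bp upstream (96.9) and 1571 bp downstream (124.3). The gene mir-2 had a peak of signal 246.3 with its summit 1893 bp upstream, beside the weaker one (86.8) at 339 bp. The mir-35 cluster had a further summit 1959 bp upstream of mir-35 (89.2). These farther summits are not in the distances given for nearest summits above, and the genes were named after their values were seen.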
